A study of Mus musculus with 8 samples.

Results

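The 9 genes described here, Runx2, Cbfb, Sp7, Dlx3, Dlx5, Dlx6, Atf4, Mef2c and Zfp521, encode transcription factors of the osteoblast lineage, the line of cells that makes bone and ends in the osteocyte. They were taken as a list of mouse symbols, each of which matched a single Ensembl gene among the 43346 genes of the raw count table, and all 9 were among the 15511 genes with enough counts to test. RNA had been sequenced from bone fractions enriched for osteocytes, the cells buried in mineralized matrix, of C57BL/6 mice aged 12 weeks. There were 3 libraries of frontal bone (numbered 1, 2 and 4), 2 of parietal bone (2 and 4) and 3 of femur (1, 2 and 4). All groups share strain and age, and their labels name neither a treatment nor a genetic change. Frontal and parietal bones form the vault of the skull and are called calvaria here, while the femur is a long bone. No label ties a library to an animal or a pool, so the p-values speak only of the spread among these libraries, part of which may be technical.

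RUNX2 is the factor without which no osteoblasts form. It binds DNA as a heterodimer with CBFB, and SP7 (osterix) acts downstream of it on the genes of bone matrix. Homeodomain factors of the DLX family act on Runx2, Sp7 and matrix genes, and ATF4 serves amino acid supply and late osteoblast genes, with RUNX2 as a partner. MEF2C acts in osteocytes on the enhancer of Sost, the gene of the Wnt inhibitor sclerostin, and ZFP521 is a zinc finger repressor that binds RUNX2 and EBF factors.

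Promoter sequences are shown for Runx2, Cbfb and Atf4, because these 3 genes differed between calvaria and femur by nearly the same factor. Each window runs from 250 bases before to 50 bases after a RefSeq transcription start on GRCm38.p6, printed 5′ to 3′ on the strand of the gene. RefSeq windows were at hand for 4 of the 9 genes, the fourth being Mef2c, and not for Sp7, Dlx3, Dlx5, Dlx6 and Zfp521. The Runx2 window is chr17:44814578-44814877 on the minus strand, the Cbfb window chr8:105170424-105170723 on the plus strand and the Atf4 window chr15:80254934-80255233 on the plus strand.
Runx2: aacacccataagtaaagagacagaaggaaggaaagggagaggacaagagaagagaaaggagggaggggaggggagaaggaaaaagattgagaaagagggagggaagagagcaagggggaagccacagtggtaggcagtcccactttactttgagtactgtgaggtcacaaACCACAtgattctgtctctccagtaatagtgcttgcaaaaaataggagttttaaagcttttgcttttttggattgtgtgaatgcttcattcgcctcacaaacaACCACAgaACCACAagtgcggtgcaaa
Cbfb: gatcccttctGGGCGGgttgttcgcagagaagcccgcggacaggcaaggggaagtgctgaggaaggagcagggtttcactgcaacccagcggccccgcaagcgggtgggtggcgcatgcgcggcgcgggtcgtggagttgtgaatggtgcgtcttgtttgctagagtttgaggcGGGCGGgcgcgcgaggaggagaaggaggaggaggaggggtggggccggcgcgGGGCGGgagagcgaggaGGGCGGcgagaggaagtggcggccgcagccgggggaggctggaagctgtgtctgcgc
Atf4: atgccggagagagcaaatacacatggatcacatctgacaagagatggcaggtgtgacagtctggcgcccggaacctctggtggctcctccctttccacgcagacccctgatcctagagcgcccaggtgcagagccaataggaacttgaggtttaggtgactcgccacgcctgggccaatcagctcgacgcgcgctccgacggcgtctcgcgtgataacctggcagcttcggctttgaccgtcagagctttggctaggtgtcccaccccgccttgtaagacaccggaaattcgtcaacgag
Capitals mark matches to 5 motifs searched on both strands: TGTGGT for RUNX, TAATTA for homeodomain factors, CTANNNNTAG for MEF2, TGATGCAA for ATF4 and C/EBP, and GGGCGG for SP and KLF factors.

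The Runx2 window held 3 RUNX motifs, all on the opposite strand, where they read ACCACA in the line above, with first bases at -80, 24 and 32 from the start. Of all 32851 windows, 16.8% held a RUNX motif. The Cbfb window held 4 SP and KLF motifs, at -240, -76, -24 and -7, a motif found in 35.7% of windows. The Atf4 window held no match to any of the 5 motifs. Of the 3 Mef2c windows, 1 held a homeodomain motif and an SP and KLF motif. Homeodomain motifs were in 5.29% of windows, MEF2 motifs in 3.69% and ATF4 and C/EBP motifs in 0.895%. The GC content was 45.3% for Runx2, 69.7% for Cbfb and 59% for Atf4.

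Libraries held between 6259229 and 13461622 counts over genes, and the fractions differed in what they contained. The label of osteocytes was checked against 14 osteocyte markers, all of which had counts in every bone. They took 0.111 to 0.184% of counts in calvarial libraries and 2.53 to 4.98% in femur libraries. Dmp1 had the most counts of them, 26349 in calvaria and 874941 in femur, and so weighs most on these shares. By edgeR 12 of the 14 were called lower in calvaria (median log2 fold change -3.26), and 2, Fgf23 and Kcnk2, were not called. A list of 23 bone matrix and osteoblast genes took 1.44 to 3.74% in calvaria and 7.30 to 10.01% in femur. It was lowest in frontal libraries 1 and 4, at 1.49% and 1.44%, against 3.74% in frontal library 2 and 3.25% and 3.45% in the parietal libraries. Blood cell markers ran the other way. The 17 erythroid markers found took 7.43 to 11.7% in calvaria and 1.27 to 3.07% in femur, the 19 granulocyte markers 7.01 to 9.30% and 1.85 to 4.83%, the 15 B cell markers 0.258 to 0.310% and 0.0595 to 0.101%, and the 17 monocyte and macrophage markers 1.38 to 1.82% and 0.398 to 0.696%. None of these blood cell markers was at 0 in either. The 16 chondrocyte markers took 0.0037 to 0.0078% in calvaria and 0.0547 to 0.127% in femur, again with none at 0. The 16 endothelial markers took 0.0308 to 0.0474% in calvaria and 0.0707 to 0.0876% in femur, with 14 called lower by edgeR, and the 13 osteoclast markers 0.582 to 0.776% and 0.208 to 0.388%, with 6 called higher and 2 lower. Car2, which is also in the erythroid list, is among these 6. It had 165888 counts in calvaria and 17046 in femur, and so weighs heavily on the osteoclast shares. Acp5 and Ctsk were called higher too, while Mmp9, also in the granulocyte list, was not called. The part of these shares in the differences that follow was not tested, and in such bulk fractions fewer cells of a type and less RNA per cell cannot be told apart.

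Levels are given as CPM, read counts relative to a library size that is scaled by TMM (trimmed mean of M values). On this scale 7 of the 9 factors were lower in calvaria than in femur and the other 2, Dlx6 and Zfp521, did not pass the test. The falls ran from 17.9-fold for Dlx3 and 7.83-fold for Sp7 through 2.92-fold for Dlx5, 2.09-fold for Runx2, 1.95-fold for Atf4 and 1.92-fold for Cbfb to 1.51-fold for Mef2c. A gene was called at an adjusted p under 0.05 in edgeR's quasi-likelihood test, with calvaria taken as the mean of frontal and parietal bone. By that rule 61% of all genes tested were called and 31.4% were called lower, so that 7 called of 9 is to be read against a background in which most genes differed. The median log2 fold change was -0.97 over the 9 factors and 0.01 over all genes tested. In every one of the 7 that fell, each calvarial library lay under each femur library, which held in this direction for 27.5% of all genes.

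**Figure D1:**
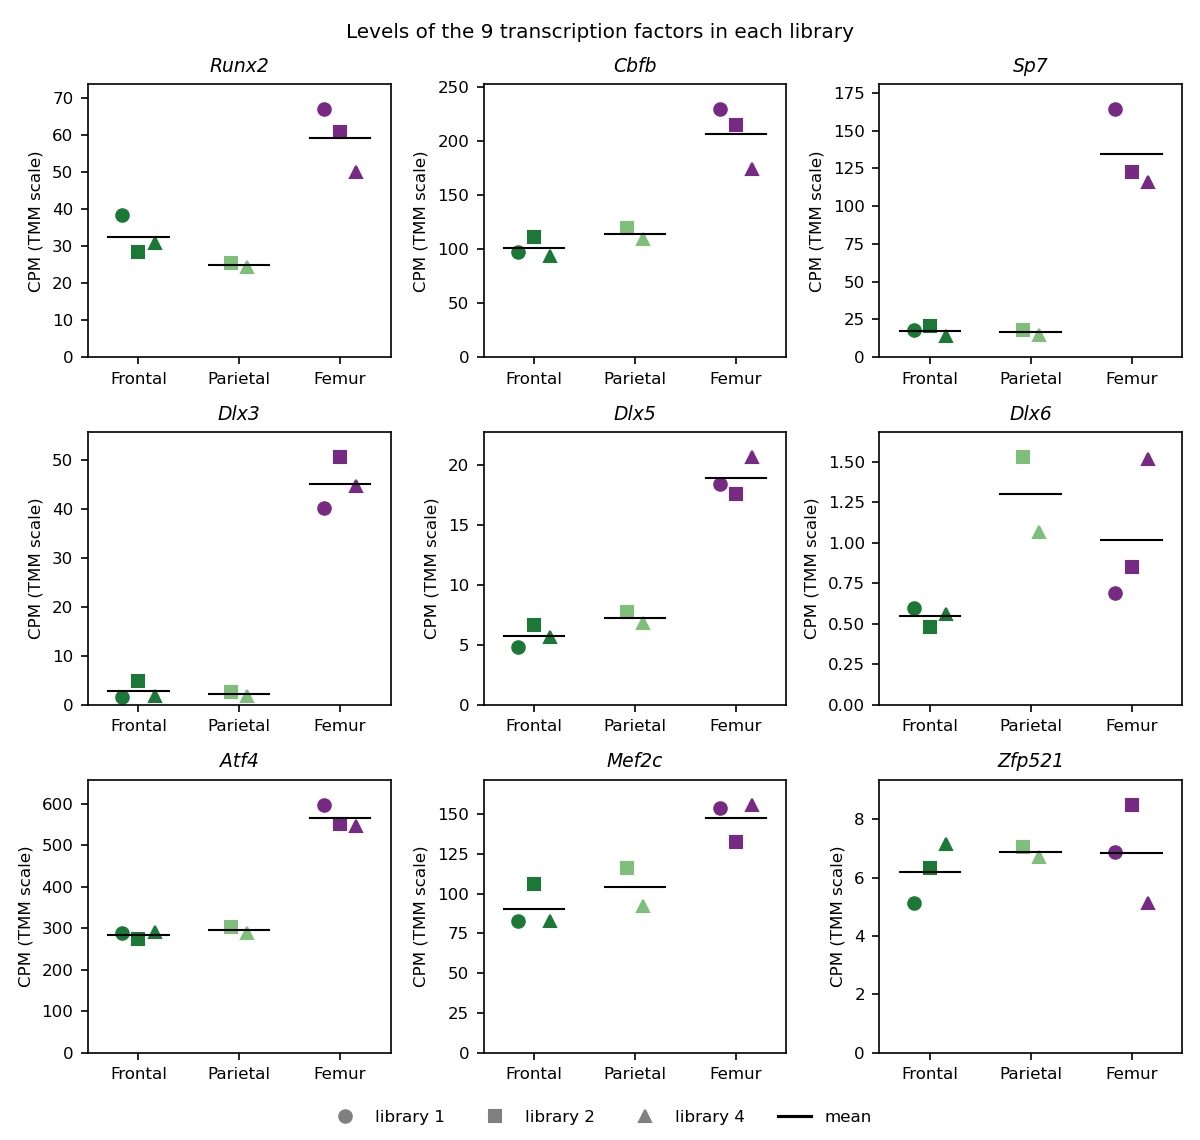
Levels of the 9 factors in CPM on the TMM scale (vertical axis from 0) by bone, with points for the libraries, shaped by library number, and lines for the means. Calvarial and femur points do not overlap for Runx2, Cbfb, Sp7, Dlx3, Dlx5, Atf4 and Mef2c, and they overlap for Dlx6 and Zfp521.

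How far these directions reach depends on what the libraries are scaled to. Scaling to the bone matrix and osteoblast list in place of TMM asks how much of a transcript there was relative to bone matrix transcripts, and it moved the median of all genes to a log2 fold change of 1.65, with 77.5% of genes called, 73.6% higher in calvaria and 3.91% lower. Sp7 (-1.33 ± 0.36, SE, adjusted p = 0.000358) and Dlx3 (-2.68 ± 0.40, adjusted p = 1.57e-10) were still lower in calvaria by edgeR. They stayed called when each library was left out in turn, at -1.42 to -1.22 for Sp7 and -2.88 to -2.55 for Dlx3, as did Zfp521 at 1.38 to 1.83. The fold changes of Runx2 (0.63, adjusted p = 0.105), Cbfb (0.71, 0.0695), Atf4 (0.71, 0.0807) and Dlx5 (0.06, 0.891) changed sign and did not pass by edgeR. Mef2c (1.03, adjusted p = 0.00835) and Zfp521 (1.56, 0.000479) were higher in calvaria by edgeR on that scale, and Dlx6 did not pass (1.27, adjusted p = 0.0899). Without femur library 1 or femur library 2 Mef2c did not pass by edgeR (adjusted p = 0.0638 and 0.06). Without frontal library 2, by edgeR, Runx2 (0.80, adjusted p = 0.000781), Cbfb (0.84, 0.000214), Atf4 (0.86, 0.000136) and Dlx6 (1.51, 0.0225) were called higher in calvaria on that scale. With all libraries, the 9 values lay under the all-gene median of 1.65.

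**Figure D2:**
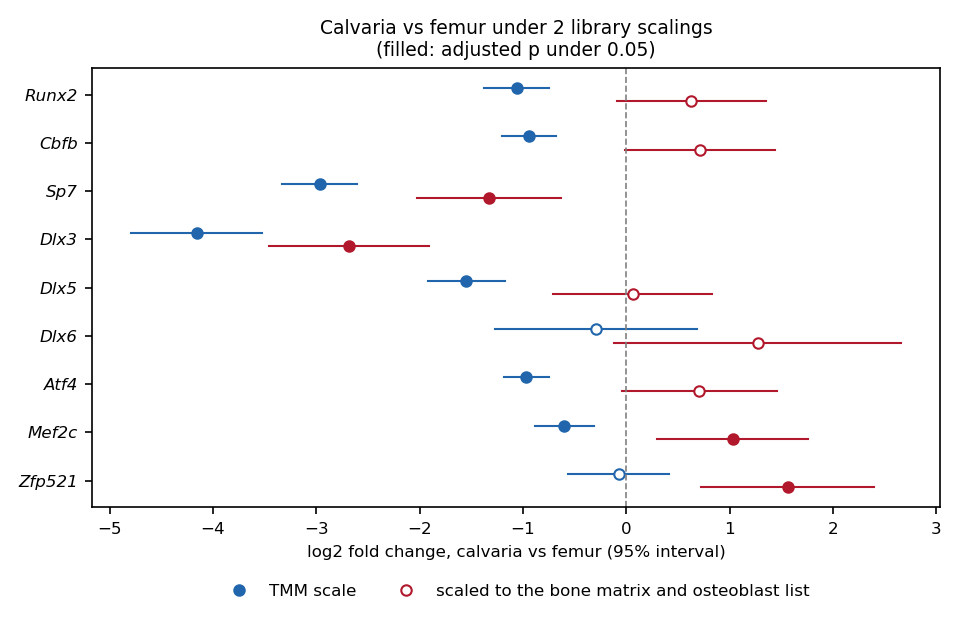
Log2 fold changes of calvaria against femur for the 9 factors (horizontal axis) with 95% intervals, on the TMM scale in blue and scaled to the bone matrix and osteoblast list in red; filled points have an adjusted p under 0.05. Sp7 and Dlx3 lie left of 0 with both scalings, while Runx2, Cbfb, Atf4, Dlx5, Dlx6, Mef2c and Zfp521 move from the left of 0 to its right.

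Runx2 (chromosome 17, 44495987 to 44814797, minus strand; coordinates throughout are from GENCODE M21, build GRCm38) stood at 38.5, 28.4 and 30.8 CPM in frontal libraries 1, 2 and 4 and at 25.5 and 24.3 CPM in parietal libraries 2 and 4, against 67.1, 61.0 and 50.2 CPM in femur libraries 1, 2 and 4. Every calvarial library lay under every femur library, and frontal library 1 was the highest of the calvarial ones. The log2 fold change on the TMM scale was -1.06 ± 0.14 (SE; 95% interval -1.37 to -0.75; edgeR adjusted p = 5.77e-05). Runx2os1, an antisense transcript, shares 519 exon bases with Runx2 and had 7 to 52 counts per library, against 219 to 646 for Runx2. The library kit does not mark strand, so reads in the shared bases cannot be told apart.

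Cbfb (chromosome 8, 105170674 to 105217989, plus strand), whose product stabilizes RUNX proteins on DNA, had 97.8, 112 and 93.8 CPM in the frontal libraries and 119 and 109 CPM in the parietal ones, against 230, 216 and 174 CPM in the femur libraries. Calvarial values kept within a narrow band, and the nearest femur library was number 4. Calvaria differed from femur by a log2 fold change of -0.94 ± 0.12 (95% interval -1.21 to -0.68; edgeR adjusted p = 4.1e-05). Cbfb and Runx2, the partners of the heterodimer, thus had fold changes whose intervals overlap on the TMM scale. Their ratio of counts within a library does not depend on the scaling of libraries. Cbfb over Runx2 ran from 2.54 to 4.69 in calvaria and from 3.43 to 3.53 in femur, so that the calvarial range held that of the femur. No calvarial library lay within the femur range. The ratio was above it in the parietal libraries (4.69 and 4.50) and frontal library 2 (3.94), and under it in frontal libraries 1 and 4 (2.54 and 3.05).

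Sp7 (chromosome 15, 102356606 to 102367182, minus strand), which encodes the zinc finger factor osterix, had 17.9, 20.9 and 13.8 CPM in the frontal libraries and 18.3 and 14.9 CPM in the parietal libraries, against 164, 123 and 116 CPM in the femur libraries. The calvarial libraries lay close together and far under all 3 femur libraries. Its log2 fold change was -2.97 ± 0.17 (95% interval -3.33 to -2.61; edgeR adjusted p = 9.27e-08), and 2.63% of all genes tested had a lower one. The count of Sp7 over that of Runx2 was 0.466, 0.737 and 0.447 in the frontal libraries and 0.718 and 0.616 in the parietal ones, against 2.45, 2.01 and 2.32 in the femur libraries. All 5 calvarial ratios lay far under the 3 femur ratios. Against Ibsp, a matrix gene taken as a target of both factors, the ratio of Sp7 counts was 0.0106 to 0.0246 in calvaria and 0.116 to 0.135 in femur, without overlap. Ibsp itself did not pass between calvaria and femur on the TMM scale (log2 fold change 0.08). The ratio of Sp7 to Alpl, another target, ran from 0.299 to 0.452 in calvaria and from 0.384 to 0.492 in femur, and these ranges overlap. Sp7 over Col1a1, the main collagen gene of bone, overlapped too, at 0.00211 to 0.0165 in calvaria and 0.00632 to 0.00650 in femur, with frontal libraries 1 and 4 above all femur libraries. Runx2 over Alpl was higher in calvaria, at 0.405 to 0.970, than in femur, at 0.165 to 0.229. Alpl, the alkaline phosphatase of mineralizing cells, averaged fewer CPM in calvaria, at 39.7 to 70.1 CPM, than in femur, at 266 to 334 CPM.

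**Figure D3:**
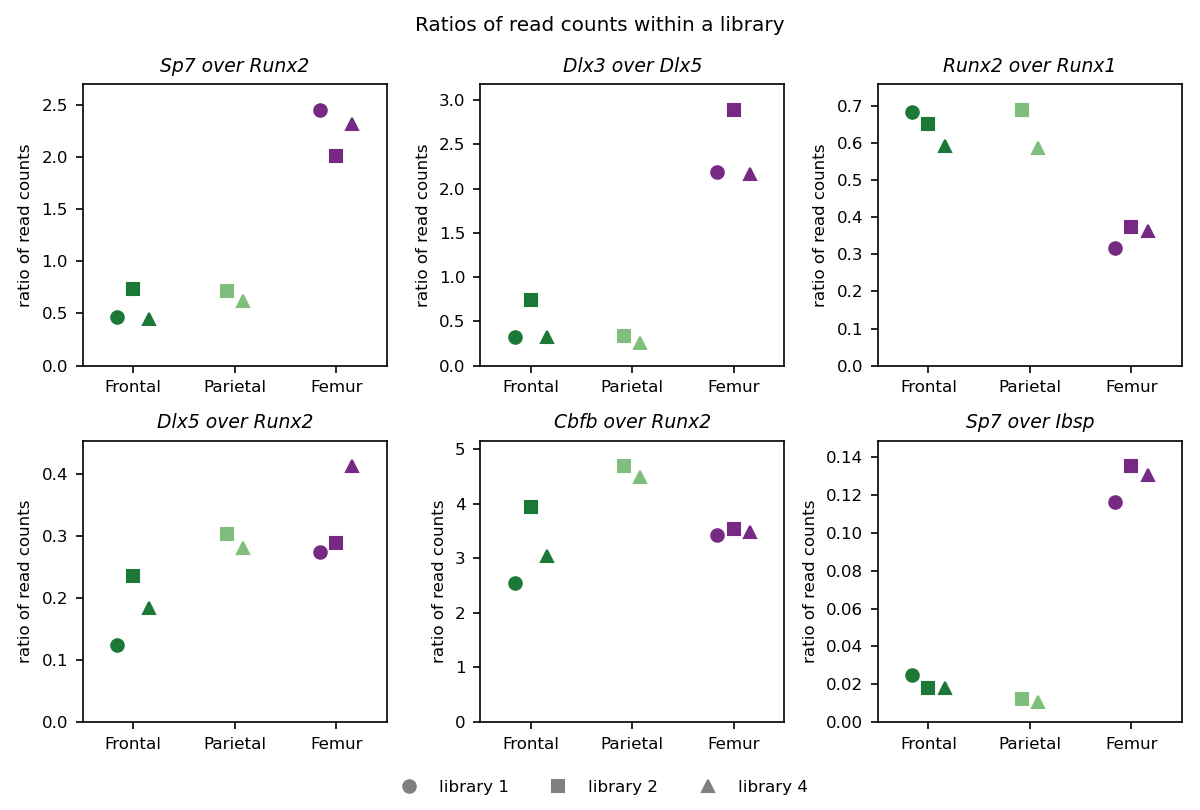
Ratios of read counts within each library (vertical axes from 0), by bone, with points shaped by library number; a ratio within a library does not depend on how libraries are scaled. Sp7 over Runx2, Dlx3 over Dlx5 and Sp7 over Ibsp lie lower in the 5 calvarial libraries than in the 3 of femur and Runx2 over Runx1 lies higher, while Dlx5 over Runx2 and Cbfb over Runx2 overlap.

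The DLX genes differed among themselves. Dlx3 (chromosome 11, 95120119 to 95125296, plus strand), a homeodomain factor of bone, tooth and hair, had 1.55, 4.97 and 1.83 CPM in the frontal libraries and 2.60 and 1.75 CPM in the parietal libraries, against 40.2, 50.7 and 44.8 CPM in the femur libraries. All calvarial libraries were near the bottom of the scale, and frontal library 2 was the highest of them. The log2 fold change was -4.16 ± 0.29 (95% interval -4.79 to -3.52; edgeR adjusted p = 4.5e-07), and 0.774% of all genes tested had a lower one.

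Dlx5 (chromosome 6, 6877805 to 6882085, minus strand), which acts on Runx2 and Sp7 during bone formation, had 4.78, 6.69 and 5.62 CPM in the frontal libraries and 7.72 and 6.79 CPM in the parietal libraries, against 18.4, 17.6 and 20.7 CPM in the femur libraries. The groups of calvaria and femur did not overlap. The difference on the log2 scale was -1.55 ± 0.17 (95% interval -1.92 to -1.17; edgeR adjusted p = 1.25e-05). Dlx3 over Dlx5 was 0.325, 0.743 and 0.325 in counts in the frontal libraries and 0.337 and 0.257 in the parietal ones, against 2.19, 2.89 and 2.17 in the femur libraries. The ratio was higher in frontal library 2 than in the other calvarial libraries, and lower in all 5 than in the femur libraries. Relative to Runx2, Dlx5 counts were 0.124 to 0.303 in calvaria and 0.274 to 0.412 in femur, with overlap. The overlap came from the parietal libraries (0.303 and 0.280), while the frontal ones (0.124, 0.236 and 0.183) lay under all femur libraries.

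Dlx6 (chromosome 6, 6863334 to 6868568, plus strand), the neighbour of Dlx5 with overlapping roles in the embryo, was near the limit of detection. It had 5, 5 and 4 counts in the frontal libraries and 20 and 11 in the parietal libraries, against 4, 9 and 13 in the femur libraries. In CPM these were 0.598, 0.478 and 0.562 in frontal bone and 1.53 and 1.07 in parietal bone, against 0.688, 0.850 and 1.52 in femur. Frontal libraries were the lowest, and the parietal ones overlapped the femur. The log2 fold change of calvaria against femur was -0.29 ± 0.45 (95% interval -1.27 to 0.69; edgeR adjusted p = 0.598), an interval that takes in a fall as large as that of Runx2. The antisense gene Dlx6os2 shares 104 exon bases with Dlx6 and had 0 to 3 counts per library.

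Atf4 (chromosome 15, 80255184 to 80257541, plus strand), the effector of the integrated stress response, had 288, 273 and 290 CPM in the frontal libraries and 302 and 289 CPM in the parietal libraries, against 598, 552 and 546 CPM in the femur libraries. It was the steadiest of the 9 within bones, and its groups stood well apart. The log2 fold change was -0.97 ± 0.10 (95% interval -1.18 to -0.75; edgeR adjusted p = 7.13e-06). ATF4 is controlled largely at translation, which RNA counts do not show. Atf4 over Runx2 in counts was 7.47 to 11.9 in calvaria and 8.92 to 10.9 in femur, with overlap. Both parietal libraries, at 11.9, lay above the femur range, and frontal library 1, at 7.47, lay under it.

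Mef2c (chromosome 13, 83504034 to 83667080, plus strand) had the smallest fall of those called. Its values were 82.7, 106 and 82.8 CPM in the frontal libraries and 116 and 92.4 CPM in the parietal libraries, against 154, 132 and 156 CPM in the femur libraries. The highest calvarial library, parietal 2, lay just under the lowest femur library, number 2. Its log2 fold change was -0.60 ± 0.13 (95% interval -0.89 to -0.31; edgeR adjusted p = 0.00191). With a trend on exon length and GC content removed, it was -0.28 and no longer passed by edgeR (adjusted p = 0.0975). Mef2c is also made in B cells and myeloid cells, whose marker shares were higher in calvaria, and in endothelium, whose marker share was lower, as given above.

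Zfp521 (chromosome 18, 13687013 to 13972787, minus strand), an antagonist of RUNX2 and of EBF factors, had 5.14, 6.31 and 7.16 CPM in the frontal libraries and 7.03 and 6.69 CPM in the parietal libraries, against 6.88, 8.50 and 5.13 CPM in the femur libraries. Calvarial values all lay within the femur range, and the log2 fold change was -0.07 ± 0.22 (95% interval -0.56 to 0.41; edgeR adjusted p = 0.793). A fall as large as that of Runx2 lies outside this interval on the TMM scale. Zfp521 over Runx2 in counts was 0.134, 0.222 and 0.233 in the frontal and 0.276 and 0.276 in the parietal libraries, against 0.103, 0.139 and 0.102 in the femur libraries. Only frontal library 1 came within the femur range.

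Frontal and parietal bone were also set against the femur singly, in comparisons that share the 3 femur libraries. The same 7 factors were called lower in each on the TMM scale, while scaled to bone matrix transcripts only Sp7 (-1.005 in frontal and -1.65 in parietal bone) and Dlx3 (-2.31 and -3.06) were called lower. That scaling turned the direction of others with a passing test by edgeR. In frontal bone Runx2 (1.15, adjusted p = 0.00625), Mef2c (1.22, 0.00389), Atf4 (0.99, 0.0234), Cbfb (0.92, 0.0303) and Zfp521 (1.78, 0.000241) were called higher, and in parietal bone Zfp521 (1.34, adjusted p = 0.0131) was. Among all 15511 genes tested, that scaling called 12119 higher and 442 lower in frontal bone, and 8926 higher and 592 lower in parietal bone. On the TMM scale 55.7% of all genes were called by edgeR in each comparison, with 28.5% called lower in frontal and 28.6% in parietal bone. For frontal bone the log2 fold changes were -3.96 for Dlx3, -2.93 for Sp7, -1.72 for Dlx5, -1.03 for Cbfb, -0.997 for Atf4, -0.87 for Runx2 and -0.70 for Mef2c. For parietal bone they were -4.36 for Dlx3, -3.01 for Sp7, -1.37 for Dlx5, -1.25 for Runx2, -0.94 for Atf4, -0.85 for Cbfb and -0.50 for Mef2c. The parietal value of Mef2c passed narrowly (edgeR adjusted p = 0.0239) and did not pass without parietal library 4 (-0.38, adjusted p = 0.176). With frontal libraries 1 and 4, the lowest in bone matrix transcripts, both left out, frontal bone was a single library assumed to vary like the others. Then Mef2c did not pass in frontal bone by edgeR (-0.46, adjusted p = 0.111), while the other 6 did, and in calvaria against femur 7 factors were still called. Dlx6 was -0.92 ± 0.54 in frontal bone (95% interval -2.10 to 0.27; edgeR adjusted p = 0.171), with all frontal libraries under all femur ones (as for 31.6% of all genes), and 0.34 ± 0.52 in parietal bone (-0.79 to 1.46; 0.603). Zfp521 was -0.15 ± 0.25 in frontal (-0.70 to 0.40; edgeR adjusted p = 0.639) and 0.00 ± 0.27 in parietal bone (-0.60 to 0.60; 0.998).

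**Figure D4:**
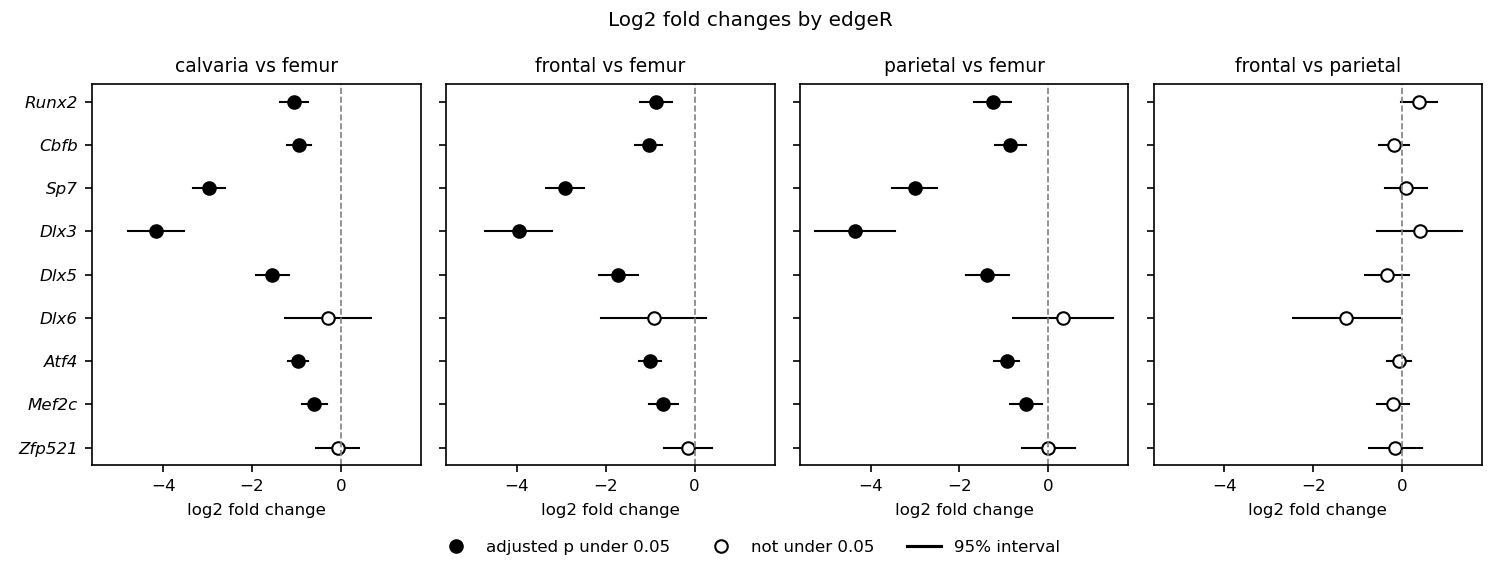
Log2 fold changes (horizontal axes) with 95% intervals of the 9 factors on the TMM scale in the 4 comparisons; filled points have an adjusted p under 0.05. In each of the 3 comparisons with femur, 7 filled points lie left of 0, and in frontal against parietal bone no point is filled; 5 of the 7 change sign when calvaria is scaled to bone matrix transcripts.

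Between frontal and parietal bone 0 of the 9 factors were called by edgeR, and 0 by DESeq2 or limma-voom, against 7.21% of all genes by edgeR. Those 1118 calls were themselves unsteady, with 0 left without frontal library 1, parietal library 2, parietal library 4 or femur library 2. Without adjustment 1 factor passed the 0.05 level by edgeR, Dlx6, at a log2 fold change of -1.25 ± 0.55 (95% interval -2.46 to -0.04; adjusted p = 0.162). Its 3 frontal libraries lay under both parietal ones, and its values rest on 4 to 20 counts per library. Dlx5 was also lower in each frontal than in each parietal library (-0.34, 95% interval -0.84 to 0.15; edgeR adjusted p = 0.336). Runx2 was higher in each frontal library (0.39, 95% interval -0.02 to 0.79; edgeR adjusted p = 0.19). Libraries of the 2 bones did not overlap in these directions for 25.6% of all genes (lower) and 21.9% (higher). The remaining 6 had log2 fold changes of 0.40 for Dlx3, 0.08 for Sp7, -0.06 for Atf4, -0.15 for Zfp521, -0.18 for Cbfb and -0.21 for Mef2c, with overlapping libraries. The narrowest interval, that of Atf4, ran from -0.33 to 0.21, and the widest of these 6, that of Dlx3, from -0.56 to 1.35, so differences of that size are not excluded by their tests.

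Levels of different genes were compared per kilobase of merged exons (GENCODE M21), a length that counts all annotated transcripts of a gene. In calvaria the order was Atf4 at 122 ± 4.44 CPM per kb (SD, n = 5), Cbfb at 30.6 ± 3.01, Mef2c at 6.11 ± 0.94, Sp7 at 5.05 ± 0.84, Runx2 at 3.33 ± 0.64, Dlx5 at 2.79 ± 0.50, Dlx3 at 0.974 ± 0.543, Zfp521 at 0.920 ± 0.116 and Dlx6 at 0.356 ± 0.187. The ranges of Mef2c and Sp7, Sp7 and Runx2, Runx2 and Dlx5, and Dlx3 and Zfp521 overlapped. In femur the order was Atf4 at 240 ± 12.0 CPM per kb (n = 3), Cbfb at 59.4 ± 8.25, Sp7 at 39.6 ± 7.65, Dlx3 at 17.4 ± 2.01, Mef2c at 9.38 ± 0.83, Dlx5 at 8.34 ± 0.71, Runx2 at 6.72 ± 0.97, Zfp521 at 0.972 ± 0.239 and Dlx6 at 0.429 ± 0.185. Of these neighbours, Mef2c and Dlx5 were the only pair whose ranges overlapped. Per kb, Sp7 stood above Runx2 in all 3 femur libraries and in all 5 calvarial ones. Dlx3 stood above Runx2 in all 3 femur libraries and under it in all 5 calvarial ones.

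Shares within a gene family or another set of genes do not depend on library scaling, and they are given for 7 of the factors. Runx2 made up 34.9 ± 2.65% (SD, n = 5) of RUNX transcripts per length in calvaria and 27.9 ± 1.34% (n = 3) in femur, without overlap. Runx1, the member known for blood stem cells, made up 40.2 ± 2.84% and 58.7 ± 3.25%, and Runx3 24.9 ± 4.65% and 13.4 ± 2.86%. Runx2 over Runx1 in counts was 0.587 to 0.688 in calvaria and 0.316 to 0.373 in femur.
Dlx3 made up 21.5 ± 8.57% of DLX transcripts in calvaria and 64.9 ± 4.02% in femur, and Dlx5 64.1 ± 4.55% and 31.3 ± 3.09%, so that the leading DLX gene was Dlx5 in all 5 calvarial and Dlx3 in all 3 femur libraries. Dlx6 took 8.02 ± 3.18% in calvaria and 1.59 ± 0.63% in femur. Mef2c took 31.1 ± 4.24% of MEF2 transcripts in calvaria and 13.2 ± 3.53% in femur, while Mef2a, a sister gene, took 33.6 ± 6.20% in calvaria and 58.6 ± 6.94% in femur. Sp7 took 9.24 ± 1.40% of SP transcripts in calvaria and 38.7 ± 4.21% in femur. Sp3, a broadly used member, took 68.3 ± 4.65% in calvaria and 37.3 ± 3.83% in femur, at 37.7 ± 6.56 CPM per kb and 37.8 ± 1.72 CPM per kb. Zfp521 took 8.24 to 12.8% of the summed transcripts of Zfp521, its paralog Zfp423 and the EBF genes, a set wider than a family, in calvaria and 13.2 to 17.8% in femur, without overlap. Ebf1 took 73.8 ± 6.69% of that sum in calvaria and 50.1 ± 2.66% in femur, at 6.19 ± 1.06 CPM per kb and 3.03 ± 0.50 CPM per kb. Zfp521 itself stood at 0.920 ± 0.116 CPM per kb in calvaria and 0.972 ± 0.239 CPM per kb in femur.

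**Figure D5:**
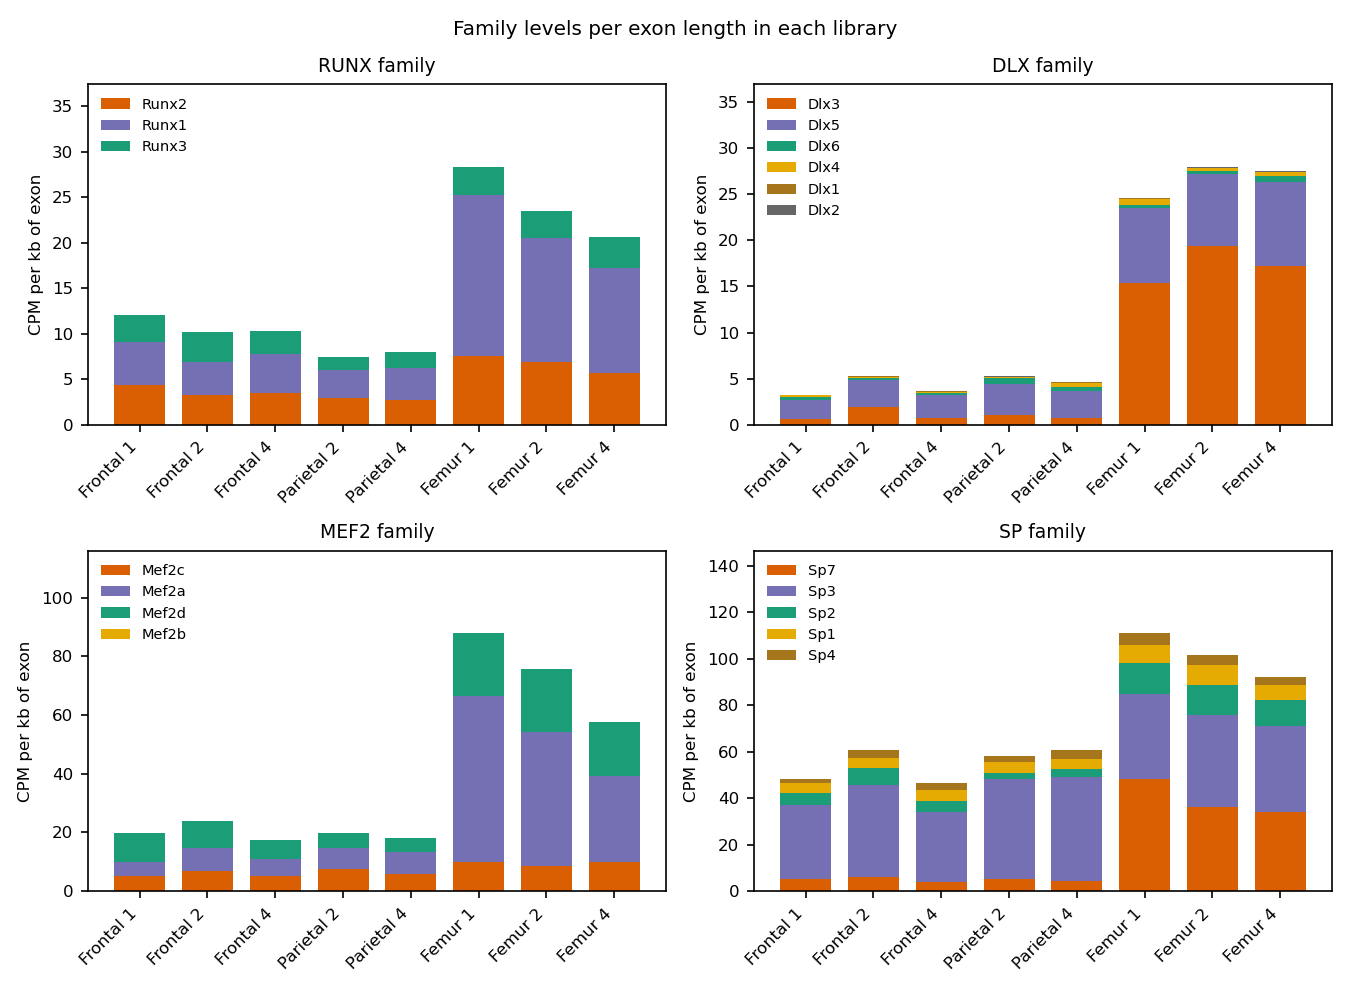
Levels of the RUNX, DLX, MEF2 and SP families in each library, in CPM per kb of merged exons on the TMM scale (vertical axes from 0), stacked by gene. In the DLX family Dlx5 is the largest block in the 5 calvarial libraries and Dlx3 in the 3 femur libraries; Sp7 is 7.23 to 10.9% of the SP stack in calvaria and 35.5 to 43.4% in femur.

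Genes around the 9 factors were described from lists, by how many of those tested were called in calvaria against femur on the TMM scale, with the count under scaling to bone matrix transcripts beside it. With that scaling 73.6% of all genes tested were called higher in calvaria by edgeR and 3.91% lower, and the list counts are to be read against these shares. Per list, the genes named are those with the smallest p in each direction. Of 19 tested targets of RUNX2 and osterix, 16 fell, 0 rose and 3 were not called (median log2 fold change -2.34), and scaled to bone matrix transcripts 9 were lower and 5 higher. Of these targets 7 belong to the list used for that scaling, which partly sets their place around 0 on it. Tnfsf11, the osteoclast-inducing ligand RANKL, fell by 2.34 on the log2 scale (22.0 ± 4.50 CPM in calvaria and 114 ± 2.99 CPM in femur; edgeR adjusted p = 4.33e-08). Vegfa, the endothelial growth factor, fell by 3.91 (edgeR adjusted p = 5.44e-08), and Dmp1, a matrix protein of osteocytes, fell by 6.04 (edgeR adjusted p = 5.43e-08). The 3 that did not pass, named after their values were seen, were Mmp13 (-0.26), Ibsp (0.08) and Tnfrsf19 (0.19). Several of these targets are themselves in the osteocyte and bone matrix lists whose shares are given above. Without frontal libraries 1 and 4 the counts were 14 lower and 1 higher. In frontal bone against femur 16 fell and in parietal bone 13.

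Of 23 RUNX partners and regulators tested, 17 fell and 6 were not called (median -0.80), against 2 lower and 12 higher scaled to bone matrix transcripts. Those named were Runx1 (-1.94 ± 0.15) and the co-activators Wwtr1 (-2.93 ± 0.17) and Yap1 (-2.56 ± 0.19), which encode TAZ and YAP. Their adjusted p by edgeR lay between 1.37e-07 and 8.5e-07. After removal of the trend on length and GC the list had 10 lower and 2 higher. In frontal bone 11 fell and 12 were not called, and in parietal bone 16 fell and 7 were not called.

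Of the DLX and MSX relatives only 2 of 8 could be tested, and Msx1, a homeodomain factor of skull and tooth, fell (-1.67 ± 0.21; 3.15 ± 0.53 CPM in calvaria and 9.78 ± 1.56 CPM in femur; edgeR adjusted p = 3.5e-05), but did not pass scaled to bone matrix transcripts. Of 12 tested MEF2 family members, class IIa histone deacetylases, their kinases and MEF2 targets, 10 fell and 0 rose (median -1.59), against 1 lower and 5 higher scaled to bone matrix transcripts. Mef2a fell by 2.71 on the log2 scale, Sik3, a kinase of class IIa deacetylases, by 1.88, and Klf4, a Krüppel-like factor, by 1.73. Of 4 tested SP relatives, Sp1 (-0.71 ± 0.13) and Sp2 (-1.58 ± 0.17) fell, and scaled to bone matrix transcripts 0 were lower and 3 higher.

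The ATF4 list held 30 genes, from the kinases that act on eIF2α to amino acid enzymes and transporters, and 21 fell while 3 rose (median -0.82), against 1 lower and 16 higher scaled to bone matrix transcripts. Sesn2, a stress-induced inhibitor of mTORC1, fell by 2.37 on the log2 scale, Atf3, a stress-induced factor, by 1.52, and Slc3a2, the heavy chain of amino acid transporters, by 1.43. The 3 that rose were Eif2ak1 (0.83 ± 0.17; edgeR adjusted p = 0.00137), the haem-regulated kinase that is abundant in erythroid cells, Eif2ak2 (0.50 ± 0.17; 0.0224) and Eif2s1 (0.41 ± 0.11; 0.00654), which encodes eIF2α. The other kinases of eIF2α, named after their values were seen, fell by 1.22 (Eif2ak3; edgeR adjusted p = 0.000201) and by 0.75 (Eif2ak4; 0.00192) on the log2 scale. Erythroid marker shares were higher in the same libraries, and their part in this was not tested.

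Among 11 partners of ZFP521, 5 fell and 3 rose (median -0.53), against 1 lower and 7 higher scaled to bone matrix transcripts. Ebf1 (0.98 ± 0.15), Ebf3 (0.95 ± 0.28) and Gata1 (1.62 ± 0.26) rose, which encode factors of B cells, of marrow stroma and of erythroid cells. Their adjusted p by edgeR lay between 0.000151 and 0.0117, and B cell and erythroid marker shares were higher in calvaria too. The marrow stroma and adipocyte list, of which Ebf3 is a member, took 0.229 to 0.316% in calvaria and 0.155 to 0.186% in femur, but its genes were mixed, with 5 of 11 tested higher and 3 lower, and Cxcl12 had the most counts of them. The chromatin factors Chd4 (-1.14 ± 0.11) and Rcor1 (-0.74 ± 0.11) fell. Ebf4 had 3 counts over the 5 calvarial libraries and 33 over the 3 femur libraries, a ratio of 0.0460 in CPM (exact 95% interval 0.00903 to 0.147, for counting error only).

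Of 39 other transcription factors of the osteoblast lineage 32 could be tested, and 26 fell and 2 rose (median -1.64), against 7 lower and 9 higher scaled to bone matrix transcripts. Shox2, a homeobox factor of the limb, fell by 5.25 on the log2 scale (1.05 ± 1.12 CPM in calvaria and 34.1 ± 7.92 CPM in femur; edgeR adjusted p = 1.22e-07). Fosl1, an AP-1 subunit, fell by 2.81, and Nfatc1, a calcineurin-dependent factor used by osteoblasts and osteoclasts, by 2.75. Pparg (0.86 ± 0.23), the factor of fat cells, and Lef1 (0.87 ± 0.20), a Wnt-dependent factor also made in lymphoid cells, rose. Among all genes tested, 31.4% were called lower and 29.6% higher on the TMM scale, and 3.91% and 73.6% scaled to bone matrix transcripts.

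For each factor, the genes most like it over the 8 libraries were found by Pearson's r of log2 CPM among 10258 genes, as a description. All 8 libraries enter each r, so that the gap between calvaria and femur weighs on it for the 7 factors whose groups did not overlap. For Runx2 they were Sec24a (r = 0.9937), Tcf25 and Pitpna, for Cbfb Pdp1 (0.9982), Trim44 and Col11a1, and for Sp7 Capn2 (0.9981), Smad3 and Wsb2. For Dlx3 they were Fzd1 (0.9960), Irx5 and Adamts4, for Dlx5 Ankrd13c (0.9941), Dohh and Cxcl14, and for Dlx6 Rgs2 (0.9545), Tpi1 and Prkrip1. For Atf4 they were Mustn1 (0.9984), Cxcl1 and Cltb, for Mef2c P3h1 (0.9802), Rcn3 and Copa, and for Zfp521 Lrrc49 (0.9207), Zfp809 and Birc2.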

How the data were processed

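RNA was sequenced from 8 libraries of osteocyte-enriched bone fractions, grouped by bone per the labels. The authors deposited raw counts per gene, in whole numbers. The table had 43438 entries, made up of 43346 genes and 92 spike-ins that were left out here. The submitters' processing notes name the builds mm10 and GRCm38.p3 and the tools STAR 2.5.2a, limma, edgeR and DESeq2. What each was used for, and how reads were counted (tool, strand, annotation), is not given in the sources used here. Libraries were made with Nextera XT, per the labels' protocols.

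The test was edgeR 4.0.16 (R 4.3.3) on these counts, with filterByExpr (15511 genes), TMM and a robust quasi-likelihood fit of the 3 bones over all 8 libraries (5 residual degrees of freedom, biological coefficient of variation 18.6%). Benjamini-Hochberg adjustment ran over the whole set of tested genes, and each SE is the absolute log2 fold change over the root of F. limma 3.58.1 (voom) and DESeq2 1.42.0, other scalings, filters and left-out libraries were alternatives. The edgeR step was tested on simulated data with known changes in a small part of the genes. That does not test the choice of library scaling. Libraries of a bone all differed beyond sampling noise (chi-square from 7.67 per degree of freedom).

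The 9 genes and the lists were chosen with earlier results of these data known. 1 gene of a list is not reported here and was left out of that list's counts. Named list genes are the 3 called genes with the smallest p per direction in calvaria against femur. Likeness used log2 of CPM plus 0.5 and genes averaging 5 CPM or more. Symbols were found for 42462 of the 43346 genes.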

Additional observations from a re-analysis of the deposited data

How the results depend on the processing

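Calls of the 9 factors against femur changed with few choices. In calvaria and in frontal bone 7 stayed called with DESeq2 size factors, library size only, TMM without blood genes, no filter, DESeq2, limma-voom, the replicate block and each library left out. Exceptions come from scaling to the bone matrix and osteoblast list, where 4 were called in calvaria, 7 in frontal (5 of them higher) and 3 in parietal bone, and from Mef2c. With that scaling the log2 fold changes in calvaria were 0.63 (Runx2), 0.061 (Dlx5), 1.03 (Mef2c), 0.71 (Atf4), 0.71 (Cbfb) and 1.56 (Zfp521). In frontal bone they were 1.15 (Runx2), 0.16 (Dlx5), 1.22 (Mef2c), 0.99 (Atf4), 0.92 (Cbfb) and 1.78 (Zfp521), and in parietal bone 0.11 (Runx2), 0.85 (Mef2c), 0.42 (Atf4) and 0.51 (Cbfb). It measures against other transcripts, with all-gene medians of 1.97 in frontal and 1.35 in parietal bone. Mef2c did not pass with the length and GC trend removed (-0.28 in calvaria, -0.27 in frontal and -0.30 in parietal bone), and the cause was not tested. Between frontal and parietal bone 1118 genes were called, but 254 with bone scaling, 1904 with no filter, 2155 by DESeq2, 58 with the length and GC trend removed, 0 without frontal libraries 1 and 4, and 0 to 1963 with each library left out (0 without frontal 1, parietal 2, parietal 4 or femur 2). None of the 9 factors was called there in any of these. With library size only, 75.6% of those calls were higher in frontal bone (54.3% with TMM), and the median gene moved to 0.16 in frontal bone against femur.

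With the library number as a replicate block, 0 genes were called between frontal and parietal bone and no call of the 9 changed. Correlations of same-numbered libraries, taken over genes as deviations from the bone mean, ran from -0.11 to 0.15. With 2 or 3 libraries per bone, such correlations cannot show whether the numbers pair the samples. The trend removal, leaving out frontal 1 and 4 together and leave-one-out under bone scaling were chosen after seeing the data. Depth limits Dlx6, at 4 to 20 counts per library.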
